A study of Mus musculus with 9 samples.

Results

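Brown adipose tissue burns fuel in its mitochondria to make heat, and 30 genes of the pathway that feeds that combustion were followed here: enzymes of the citric acid cycle, the carrier that brings pyruvate into the mitochondrion, pyruvate carboxylase, the pyruvate dehydrogenase complex, and the kinases and phosphatases that switch the complex off and on. The list was drawn up by function, with earlier results of these data known. All 30 genes were found among the 49315 genes of the count files and passed the filter on low counts, which left 14747 genes to test. The RNA came from brown adipose tissue of male C57Bl/6J mice with obesity induced by a 60% high fat diet. In the cotadutide group (n = 5) mice were injected under the skin with cotadutide, a peptide that activates the receptors of glucagon-like peptide 1 and of glucagon, once a day over 28 days, and in the vehicle group (n = 4) with vehicle. Mice of both groups were 14 weeks old before an acclimation of 3 weeks, were housed singly with free access to the diet, weighed around 50 g, and were not kept at thermoneutrality. The dose of cotadutide is not given in the sources used here, and each library came from 1 mouse.

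Pyruvate made from glucose enters the mitochondrial matrix through a carrier built of Mpc1 and Mpc2. There the pyruvate dehydrogenase complex turns it into acetyl-CoA, and citrate synthase joins acetyl-CoA to oxaloacetate to start the cycle, whose dehydrogenases hand electrons to the respiratory chain. Kinases (Pdk1 to Pdk4) phosphorylate the complex and stop it, phosphatases (Pdp1 and Pdp2) remove the phosphate and restart it, and the balance between them sets whether a tissue oxidises glucose or spares it for fat oxidation. In brown fat, acetyl-CoA from fatty acids and from pyruvate meets in this cycle during heat production.

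Values are CPM, a gene's counts relative to the library total after scaling, and fold changes are cotadutide over vehicle. Library totals ran from 10759631 to 19459796 counts in cotadutide mice and from 16064055 to 25108534 counts in vehicle mice. Markers of brown adipocytes were present in every library, with Ucp1 at 4879 to 6693 CPM in cotadutide mice and 3762 to 6048 CPM in vehicle mice. All 6 brown adipocyte markers had a positive log2 fold change and 2 were called higher, Cidea (1.42-fold, no overlap, edgeR adjusted p = 0.0184) and Cox7a1 (1045 to 1720 CPM in cotadutide and 690.5 to 1114 CPM in vehicle mice, edgeR adjusted p = 0.0431). The sum of 5 adipocyte markers shared with white fat was 16789 to 20166 CPM in cotadutide mice and 12482 to 14405 CPM in vehicle mice, without overlap. Of these 5, 2 were called higher, Adipoq (1.56-fold, edgeR adjusted p = 0.0147) and Fabp4 (1.35-fold, edgeR adjusted p = 0.0212). Markers of some other cell types also differed between the groups. The sum of 12 skeletal muscle markers was 5058 to 18769 CPM in cotadutide mice and 21153 to 46743 CPM in vehicle mice, without overlap, and 5 of the 12 were called lower. The sum of 6 macrophage markers was 136 to 256 CPM in cotadutide mice and 211 to 362 CPM in vehicle mice, and 5 of the 6 were called lower. The sum of 5 fibroblast markers was 477 to 1086 CPM in cotadutide mice and 826 to 1294 CPM in vehicle mice, with all 5 log2 fold changes negative and none called. The sum of 5 endothelial markers was 425 to 561 CPM in cotadutide mice and 411 to 503 CPM in vehicle mice, with overlap. All 5 endothelial log2 fold changes were positive and 1 was called higher, Emcn (1.30-fold, edgeR adjusted p = 0.0459). Cotadutide mouse 3 stood apart with 22.7 CPM over 4 T and B cell markers, where the other 8 libraries held 1.43 to 2.24 CPM. In whole tissue, fewer cells of a type and less RNA per cell cannot be told apart. The part of adipocyte mRNA in the values of the 30 genes was not tested.

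Most genes of the cycle and of the pyruvate dehydrogenase complex had nearly the same mRNA level in both groups, and the larger of the changes that passed the test were in the phosphatases of the complex. The phosphatase gene Pdp2 rose 1.83-fold, the phosphatase gene Pdp1 was 1.74 times lower, the pyruvate carrier gene Mpc2 rose 1.35-fold, and Idh3g, a subunit gene of isocitrate dehydrogenase, rose 1.23-fold. A gene was called where the p of edgeR's quasi-likelihood test, adjusted by the method of Benjamini and Hochberg over all genes tested, was under 0.05. By that measure 3 of the 30 genes were called higher, 1 was called lower and 26 were not called. Of all genes tested, 9.31% were called higher, 9.34% lower and 18.7% in either direction, beside 13.3% of the 30. The order of these shares changed with single libraries: 3.33% of the 30 and 0.938% of all genes were called on leaving out vehicle mouse 1, 3.33% and 0.992% for vehicle mouse 2, 6.67% and 4.95% for vehicle mouse 3, and 6.67% and 5.55% for cotadutide mouse 2. Without the low-count filter it was 10.0% of the 30 and 7.57% of all genes. The median log2 fold change of the 30 genes was 0.09 with 23 above 0, beside 0.00 with 50.3% above 0 for all genes tested. That median was 0.06 without cotadutide mouse 2 or without cotadutide mouse 5 and 0.05 without the low-count filter, and the number above 0 was lowest, at 19, without cotadutide mouse 4. The fold changes were small. In size, 16 of the 30 were less than 1.1-fold, those of Pdp1 and Pdp2 alone were more than 1.5-fold, and the median absolute log2 change was 0.12, beside 0.23 for all genes tested. For 25 of the 30 the 95% interval of the change lay wholly within 1.5-fold in either direction. The groups did not overlap for 5 genes with cotadutide above (Idh3b, Idh3g, Suclg1, Pdp2 and Mpc2) and for 1 with cotadutide below (Pdp1), beside 8.06% and 7.79% of all genes tested. The number called higher moved with single libraries, as did that of all genes. It was 0 without vehicle mouse 1 or vehicle mouse 2, where 0.317% and 0.283% of all genes were called higher. It was 1 without vehicle mouse 3 or cotadutide mouse 2, 3 or 5, where 1.78%, 3.17%, 3.74% and 6.91% of all genes were, and 1 with mouse numbers as a block, where 3.50% were. Without both vehicle mouse 4, the library richest in muscle mRNA, and cotadutide mouse 3, it was 3 higher and 1 lower, where 22.2% of all genes were called in either direction. Those 3 held Pdk2 in place of Idh3g, which was not called there (edgeR adjusted p = 0.0896).

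**Figure D1:**
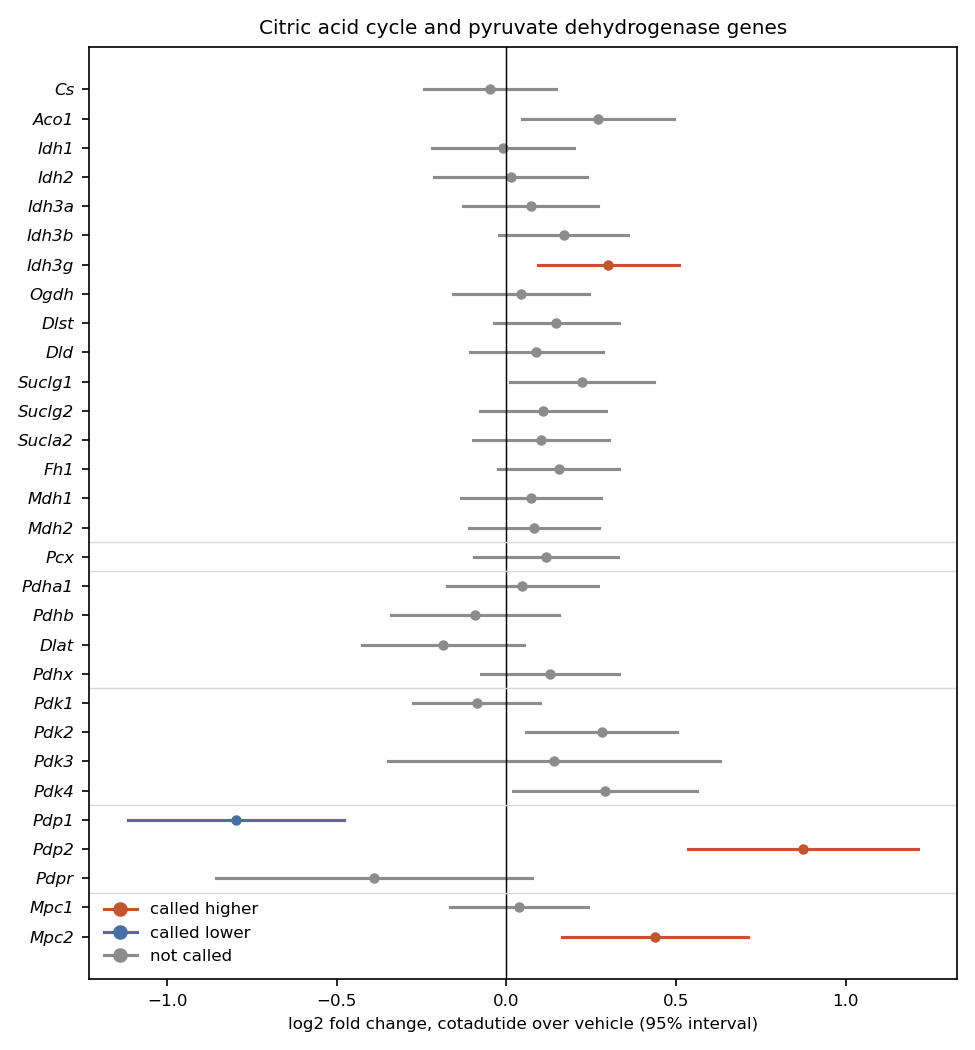
Log2 fold change (cotadutide over vehicle, x axis) of each of the 30 genes (rows, grouped by role and separated by grey lines), with the edgeR estimate as a point and its 95% interval as a bar. Most intervals include 0 and lie close to it, and the phosphatases Pdp1 (-0.80) and Pdp2 (0.87) lie farthest out on opposite sides.

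The starts of the genes that were called higher are shown so that the regions can be read beside their values. In the mm10 coordinates of the files, Pdp2 (ENSMUSG00000048371) lies on chromosome 8 from 104591451 to 104599026, Mpc2 (ENSMUSG00000026568) on chromosome 1 from 165460637 to 165481214, Idh3g (ENSMUSG00000002010) on chromosome X from 73778963 to 73786897 on the reverse strand, and Pdp1 (ENSMUSG00000049225) on chromosome 4 from 11958184 to 11966452, also on the reverse strand. Promoters are from RefSeq on GRCm38.p6, 250 bases before to 50 after the annotated start, written 5′ to 3′ along the gene, with the bases from the start site on in capitals. Of the 30 genes 28 had a promoter in that set, and Pdp1 and Idh3a did not. The windows are Pdp2 at chr8:104591222-104591521 (plus strand), Mpc2 at chr1:165461010-165461309 (plus strand) and Idh3g at chrX:73786848-73787147 (minus strand).
Pdp2: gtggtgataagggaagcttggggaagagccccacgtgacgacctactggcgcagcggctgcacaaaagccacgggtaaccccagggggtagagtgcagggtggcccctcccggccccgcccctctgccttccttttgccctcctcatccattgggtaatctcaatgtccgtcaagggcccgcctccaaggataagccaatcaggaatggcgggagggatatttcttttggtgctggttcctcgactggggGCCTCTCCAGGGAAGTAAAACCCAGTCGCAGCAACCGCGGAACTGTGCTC
Mpc2: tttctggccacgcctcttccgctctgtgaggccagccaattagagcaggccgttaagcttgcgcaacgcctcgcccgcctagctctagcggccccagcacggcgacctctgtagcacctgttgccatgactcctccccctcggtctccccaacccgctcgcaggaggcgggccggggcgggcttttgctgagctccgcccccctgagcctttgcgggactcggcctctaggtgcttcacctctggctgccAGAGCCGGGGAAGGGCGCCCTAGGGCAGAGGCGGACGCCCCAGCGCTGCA
Idh3g: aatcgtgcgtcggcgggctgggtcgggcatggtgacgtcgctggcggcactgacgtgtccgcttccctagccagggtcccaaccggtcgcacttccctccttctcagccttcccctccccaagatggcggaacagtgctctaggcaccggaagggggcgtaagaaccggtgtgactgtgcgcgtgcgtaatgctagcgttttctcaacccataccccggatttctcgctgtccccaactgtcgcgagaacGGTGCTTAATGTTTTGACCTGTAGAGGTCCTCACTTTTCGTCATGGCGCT

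Each window was searched on both strands for the exact letters of 4 motifs: TCAAGGTCA (the element of estrogen-related receptors), GTAAACA (FoxO factors), TGACGTCA (the cyclic AMP response element) and GCGCATGCG (the core of the NRF1 site). None of these letters was present in the windows of Pdp2, Mpc2 or Idh3g. The cyclic AMP element was present in 3 of 28 genes, beside 2.03% of 27025 genes in the same set, and the NRF1 letters in 1 of 28, Ogdh, beside 1.95%. TCAAGGTCA and GTAAACA were present in 0 of 28, beside 0.466% and 4.05%. The 28 genes had 38 windows with a median G and C content of 61.8%, beside 52.7% for all 32851 windows. The part of that content in the matches was not tested. The genes with the cyclic AMP element were Mdh2, Pdpr and Ogdh, none of them called. Their sites are given with the motif in capitals, from chr5:135778512-135778539, chr8:111094587-111094614 and chr11:6291536-6291563, all on the plus strand. A match describes the letters of the window and not binding of a factor.
Mdh2: gagagaatcgTGACGTCAggcctcgctc
Pdpr: tccgccgcggTGACGTCAcggcgcgtcg
Ogdh: cccaattctgTGACGTCAcgtcacgccc

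The genes differ widely in level, and the order of their levels shifted by at most 2 places between groups. Per kb of gene model, the most abundant in vehicle mice were Pdhb, Cs and Pdk4, and in cotadutide mice these were Cs, Pdhb and Pdk4. Cs stood at 613 CPM per kb in cotadutide mice and 633 in vehicle mice, Pdhb at 609 and 649, and Pdk4 at 607 and 496. The 5 lowest in both groups were Pdk1 at 10.3 CPM per kb in cotadutide and 10.9 in vehicle mice, Pdp2 at 15.8 and 8.64, Pdp1 at 2.02 and 3.53, Pdpr at 2.42 and 3.19, and Pdk3 at 0.805 and 0.715. Mice of a group were alike, with a median coefficient of variation over the 30 genes of 9.09% in cotadutide and 7.45% in vehicle mice. The fewest counts of any of the 30 in any library were 26, for Pdk3. Lengths are those of the files' gene models, which can exceed the mRNA, so levels of genes with long models such as Mpc2 (7344 bases) are understated.

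**Figure D2:**
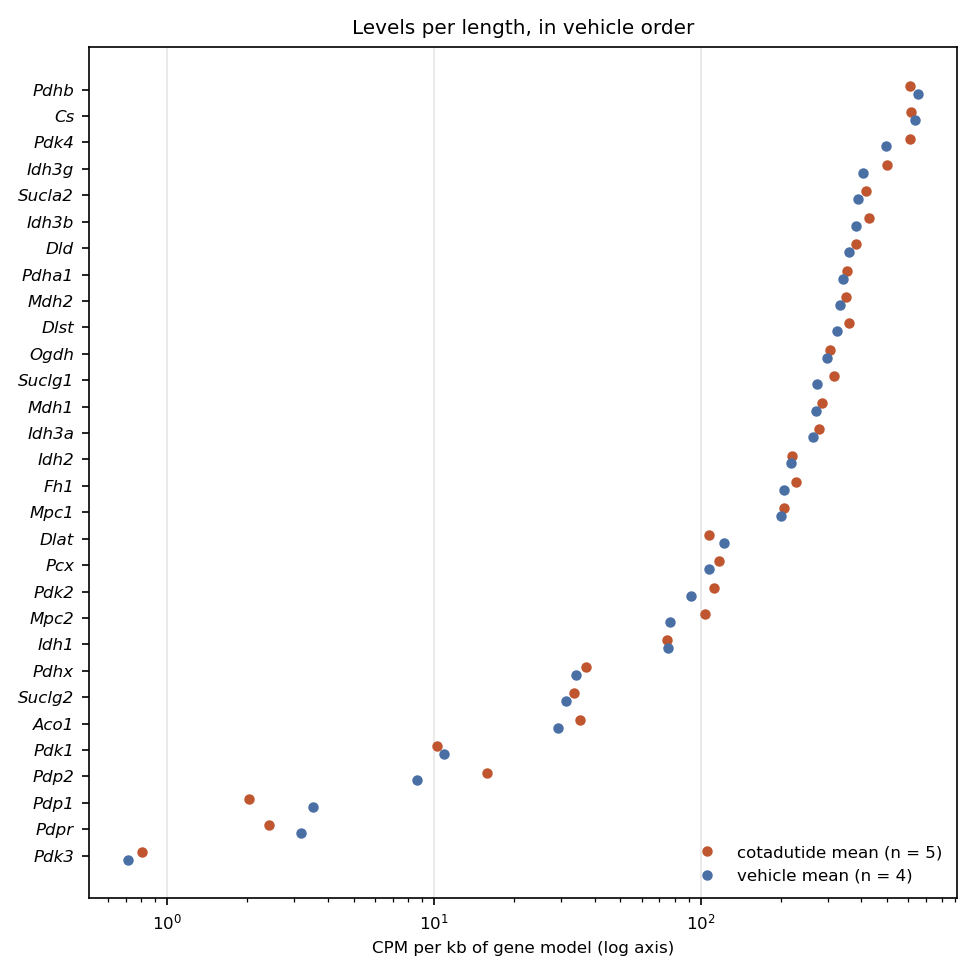
Mean level per length (CPM per kb of gene model, logarithmic x axis) of each gene in cotadutide (orange, n = 5) and vehicle mice (blue, n = 4), ordered from the highest to the lowest vehicle level. The levels span from 649 for Pdhb down to 0.715 for Pdk3 in vehicle mice, and the paired points lie close together except for Pdp2 and Pdp1.

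The phosphatases of the pyruvate dehydrogenase complex showed the largest changes. Pdp2 encodes a catalytic subunit that does not need calcium and is abundant in rat liver. Its levels were 81.9, 106, 93.8, 92.5 and 75.3 CPM in cotadutide mice 1 to 5, against 42.7, 40.6, 45.9 and 67.4 CPM in vehicle mice 1 to 4. All 5 cotadutide libraries lay above the highest vehicle library, which was mouse 4. The mean was 89.9 ± 11.9 CPM (SD, n = 5) in cotadutide and 49.2 ± 12.4 CPM (SD, n = 4) in vehicle mice, a log2 fold change of 0.87 (SE 0.15, edgeR adjusted p = 0.0147). The call was lost on leaving out vehicle mouse 1 (edgeR adjusted p = 0.0518) or vehicle mouse 2 (0.0503), and held in the other 15 alternatives run.

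Pdp1 encodes the calcium-stimulated catalytic subunit, which is abundant in rat skeletal muscle. It was a low-level mRNA, at 11.6, 8.72, 6.83, 8.97 and 9.52 CPM in cotadutide mice 1 to 5, against 14.1, 14.6, 15.8 and 19.2 CPM in vehicle mice 1 to 4. All 5 cotadutide libraries lay below the lowest vehicle library. The mean was 9.12 ± 1.70 CPM (SD, n = 5) in cotadutide and 15.9 ± 2.27 CPM (SD, n = 4) in vehicle mice, a log2 fold change of -0.80 (SE 0.15, edgeR adjusted p = 0.0147). This call held in all 17 alternatives run, with edgeR adjusted p from 0.00664 to 0.0460 without single libraries. Pdpr, the regulatory subunit that restrains the phosphatase, averaged 12.2 ± 3.37 CPM (SD, n = 5) in cotadutide and 16.0 ± 3.91 CPM (SD, n = 4) in vehicle mice and was not called (log2 fold change -0.39, 95% interval -0.86 to 0.07, edgeR adjusted p = 0.208). Its gene model shares 169 bases with a gene on the other strand that held 645 counts over the 9 libraries, beside 2333 for Pdpr, so its level is less certain.

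The ratio of the isoforms separated the groups completely. This follows from Pdp1 lying below and Pdp2 above all vehicle libraries, so the ratio and its p restate those differences and add no separate evidence. In counts, the log2 ratio of Pdp1 to Pdp2 was -2.82, -3.60, -3.77, -3.36 and -2.98 in cotadutide mice 1 to 5, against -1.60, -1.47, -1.54 and -1.81 in vehicle mice 1 to 4. The ratio was 3.25 times lower in cotadutide mice (difference -1.70 on the log2 scale, exact two-sided permutation p = 0.00794, the smallest that splits of 9 libraries allow, and 0.0397 adjusted over 5 ratios). Per length, Pdp2 made up 88.5 ± 2.86% (SD, n = 5) of the phosphatase mRNA in cotadutide mice and 70.6 ± 2.09% (SD, n = 4) in vehicle mice. Summed over both genes, the level per length was 15.3 to 20.6 CPM per kb in cotadutide and 10.4 to 16.1 CPM per kb in vehicle mice. The highest sum in vehicle mice was that of mouse 4, and it lay above the lowest cotadutide sum.

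**Figure D3:**
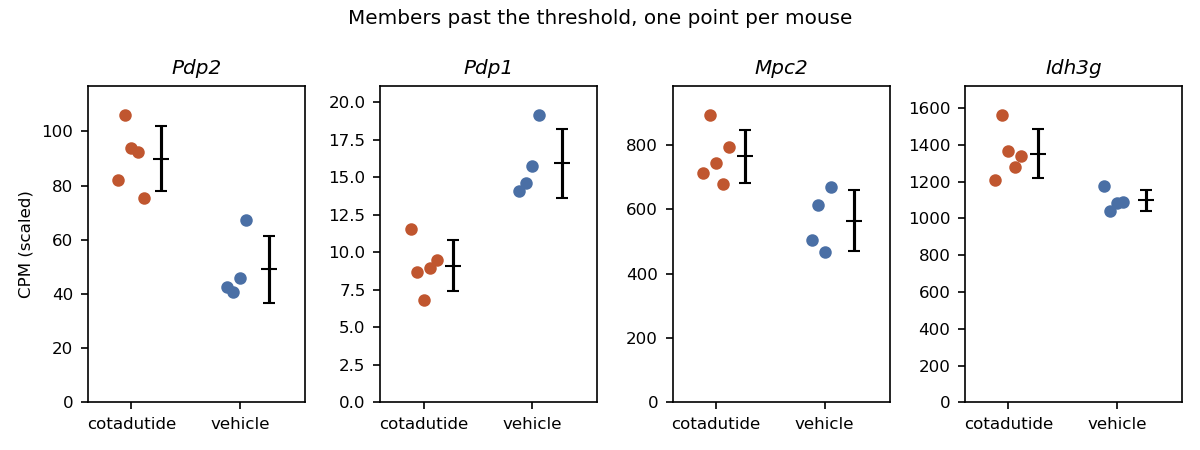
CPM of Pdp2, Pdp1, Mpc2 and Idh3g (panels, y axis from 0) with 1 point per mouse for cotadutide (left, orange) and vehicle (right, blue); the black dash and bar beside the points are the mean and SD. In none of the 4 panels do the groups overlap, with Pdp1 lower and the other genes higher in cotadutide mice.

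Within each group, the libraries with the most and the least Pdp1 were near those with the most and the least skeletal muscle mRNA. In vehicle mice the highest Pdp1 level (19.2 CPM) and the highest sum of 12 muscle markers (46743 CPM) were both in mouse 4, and the lowest of both (14.1 and 21153 CPM) in mouse 1. In cotadutide mice the lowest Pdp1 level (6.83 CPM) and the lowest muscle sum (5058 CPM) were both in mouse 3, and the 2 highest of each were in mice 1 and 5. The middle vehicle libraries did not keep this order, since mouse 2 had the second highest muscle sum and mouse 3 the second highest Pdp1 level. Among cotadutide mice Pdp2 was highest in mouse 2 (106 CPM) and lowest in mouse 5 (75.3 CPM), which had the highest muscle sum. Among vehicle mice Pdp2 was highest in mouse 4, as was the muscle sum. Lower muscle mRNA and treatment coincide in these libraries, so their parts in the Pdp1 value cannot be told apart. For Pdp2 the part of muscle mRNA was not tested.

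**Figure D4:**
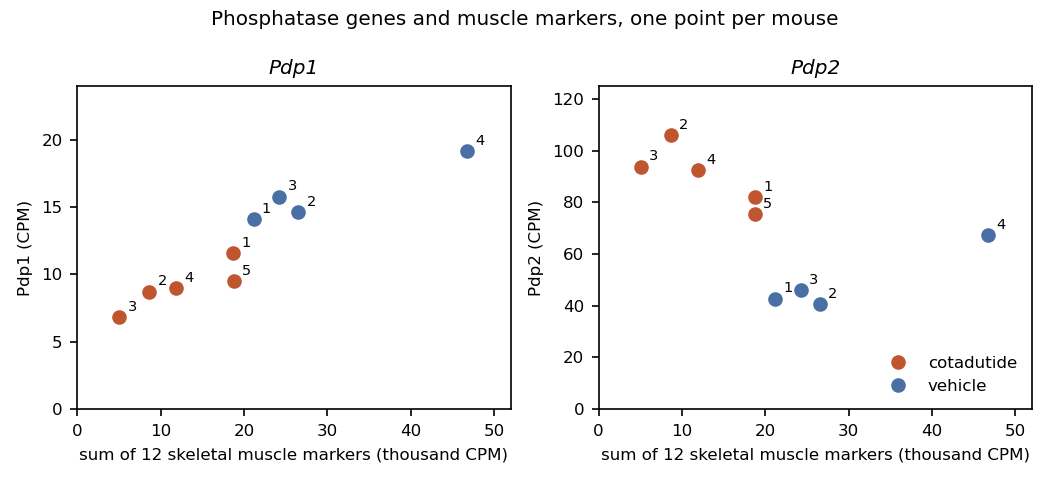
CPM of Pdp1 (left) and Pdp2 (right) against the summed CPM of 12 skeletal muscle markers (x axis), with 1 point per mouse, numbered, for cotadutide (orange) and vehicle (blue). Pdp1 lies at 6.83 to 11.6 CPM in cotadutide mice and 14.1 to 19.2 CPM in vehicle mice, which also have the higher muscle sums, and Pdp2 lies at 75.3 to 106 CPM in cotadutide mice and 40.6 to 67.4 CPM in vehicle mice.

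The kinases that inactivate the complex were not called. Pdk4, the isoform induced by fasting and fatty acids, had the highest level per length of the 4, at 1777, 1978, 2358, 2291 and 2256 CPM in cotadutide mice 1 to 5, against 1826, 1579, 2071 and 1495 CPM in vehicle mice 1 to 4. Of the cotadutide libraries, 3 lay above all vehicle libraries, and the groups overlapped through cotadutide mice 1 and 2 (log2 fold change 0.29, 95% interval 0.02 to 0.56, edgeR adjusted p = 0.115). Pdk2, a kinase of most tissues, averaged 353 ± 13.9 CPM (SD, n = 5) in cotadutide and 291 ± 44.1 CPM (SD, n = 4) in vehicle mice (log2 fold change 0.28, edgeR adjusted p = 0.0721). Vehicle mouse 4 had 356 CPM, and vehicle mice 1 to 3 had 259 to 276 CPM. On leaving out mouse 4 Pdk2 was called higher (log2 fold change 0.39, edgeR adjusted p = 0.00574), and DESeq2 called it with all libraries (adjusted p = 0.0395). It was also called higher without both vehicle mouse 4 and cotadutide mouse 3. Pdk1 averaged 80.2 CPM in cotadutide and 85.2 CPM in vehicle mice, and Pdk3 stood at 2.06 and 1.83 CPM; neither was called. Pdk4 made up 83.1 ± 1.72% (SD, n = 5) of kinase mRNA per length in cotadutide and 82.5 ± 3.49% (SD, n = 4) in vehicle mice. The summed kinase level was 625 to 790 CPM per kb in cotadutide and 544 to 689 CPM per kb in vehicle mice, with overlap. The log2 ratio of Pdk4 to Pdk2 was 2.59 ± 0.18 (SD, n = 5) in cotadutide and 2.58 ± 0.36 (SD, n = 4) in vehicle mice, a difference smaller than the spread between mice (exact permutation p = 0.984, also 0.984 adjusted over 5 ratios).

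The pyruvate carrier is a heterodimer, and 1 of its subunit mRNAs was called. Mpc2 was at 714, 893, 742, 679 and 792 CPM in cotadutide mice 1 to 5, against 506, 614, 467 and 670 CPM in vehicle mice 1 to 4. The groups did not overlap, although cotadutide mouse 4 (679 CPM) and vehicle mouse 4 (670 CPM) were close. The log2 fold change was 0.44 (SE 0.13, edgeR adjusted p = 0.0345). The call was lost without vehicle mouse 1, 2 or 3 (edgeR adjusted p = 0.109, 0.0721 and 0.110), without cotadutide mouse 2, 3 or 5 (0.0733, 0.0686 and 0.0685) and with the mouse number as a block (0.0851). Mpc1 was at 388, 455, 398, 483 and 414 CPM in cotadutide mice 1 to 5, against 438, 429, 424 and 377 CPM in vehicle mice 1 to 4, and was not called (log2 fold change 0.04, 95% interval -0.17 to 0.24, edgeR adjusted p = 0.812). The difference between the changes of the subunits was not tested. Mpc1 shares 480 bases of its gene model with an antisense gene that held 790 counts over the 9 libraries. It also has a pseudogene with 8518 counts over the same libraries, beside 69209 for Mpc1 itself, so the level of Mpc1 is less certain.

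None of the 4 core genes of the pyruvate dehydrogenase complex was called. Pdhb, the beta subunit of the decarboxylase, was at 828, 997, 785, 916 and 993 CPM in cotadutide mice 1 to 5, against 1056, 1053, 943 and 803 CPM in vehicle mice 1 to 4 (log2 fold change -0.09, 95% interval -0.34 to 0.15, edgeR adjusted p = 0.586). Pdha1, the alpha subunit that the kinases phosphorylate, averaged 1316 ± 122 CPM (SD, n = 5) in cotadutide and 1274 ± 118 CPM (SD, n = 4) in vehicle mice (edgeR adjusted p = 0.780). Its gene model overlaps by 603 bases a gene on the other strand that held 346 counts over the 9 libraries, beside 211322 for Pdha1. Pdhx, which tethers the lipoamide dehydrogenase to the core, averaged 146 CPM in cotadutide and 134 CPM in vehicle mice (edgeR adjusted p = 0.343). Dlat, the acetyltransferase of the core, averaged 522 ± 46.4 CPM (SD, n = 5) in cotadutide and 595 ± 77.1 CPM (SD, n = 4) in vehicle mice (log2 fold change -0.19, edgeR adjusted p = 0.238). Its vehicle values were 644, 619, 637 and 480 CPM in mice 1 to 4, and without mouse 4 it was called lower (log2 fold change -0.28, edgeR adjusted p = 0.0481). Pcx, pyruvate carboxylase, which refills the cycle with oxaloacetate, was at 473, 499, 472, 523 and 524 CPM in cotadutide mice 1 to 5, against 490.2, 434, 520 and 393 CPM in vehicle mice 1 to 4, and the groups overlapped (edgeR adjusted p = 0.412).

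Of the 16 genes of the cycle itself, 1 was called higher, 0 were called lower and 15 were not called (log2 fold changes from -0.05 to 0.30, median 0.09). The shares over all genes tested were 9.31% higher and 9.34% lower. At an unadjusted edgeR p under 0.05 there were 3 cycle genes higher (Aco1, Idh3g and Suclg1) and 0 lower, and 8 of all 30 genes in either direction, beside 35.7% of all genes tested. DESeq2 and limma-voom also called 0 cycle genes lower. Cs, citrate synthase, was at 1603, 1790.2, 1686, 1903 and 1681 CPM in cotadutide mice 1 to 5, against 1939, 1718, 1825 and 1680 CPM in vehicle mice 1 to 4. Its groups overlapped, and the 95% interval of the log2 fold change was -0.24 to 0.15 (edgeR adjusted p = 0.740). Idh3g, a regulatory subunit of the NAD-dependent isocitrate dehydrogenase, was the gene called higher, at 1206, 1563, 1367, 1282 and 1342 CPM in cotadutide mice 1 to 5, against 1178, 1040, 1083 and 1091 CPM in vehicle mice 1 to 4. The groups did not overlap (log2 fold change 0.30, SE 0.10, edgeR adjusted p = 0.0484). The call was close to the threshold and held only by DESeq2 (adjusted p = 0.0154) and limma-voom (0.0414); it was lost when any single library was left out, with edgeR adjusted p from 0.0516 without cotadutide mouse 1 to 0.162 without vehicle mouse 2. The partner subunits Idh3b and Idh3a were not called. Idh3b averaged 1467 ± 94.2 CPM in cotadutide and 1305 ± 79.0 CPM in vehicle mice with groups that did not overlap (edgeR adjusted p = 0.190), and Idh3a averaged 1402 ± 102 and 1335 ± 94.5 CPM (edgeR adjusted p = 0.607; SD, n = 5 and n = 4).

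Succinyl-CoA ligase joins a shared alpha subunit, Suclg1, to an ATP-forming beta subunit, Sucla2, or a GTP-forming one, Suclg2. Suclg1 was at 1323 to 1677 CPM in cotadutide mice and 1195 to 1316 CPM in vehicle mice without overlap, but was not called (log2 fold change 0.22, edgeR adjusted p = 0.125). Sucla2 averaged 1665 ± 145 CPM (SD, n = 5) in cotadutide and 1552 ± 68.1 CPM (SD, n = 4) in vehicle mice, and Suclg2 averaged 155 ± 11.8 and 144 ± 10.3 CPM. The log2 ratio of Suclg2 to Sucla2 was -3.42 ± 0.11 (SD, n = 5) in cotadutide and -3.43 ± 0.11 (SD, n = 4) in vehicle mice, a difference within the spread between mice (exact permutation p = 0.913, 0.984 adjusted over 5 ratios). The 2-oxoglutarate dehydrogenase genes Ogdh (log2 fold change 0.04), Dlst (0.15) and the shared dehydrogenase Dld (0.09) were not called, and neither was fumarase, Fh1 (0.15, edgeR adjusted p = 0.198).

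For enzymes with a partner in the cytosol, the ratio of the partners differed by less than the spread between mice. Idh2, the matrix NADP-dependent isocitrate dehydrogenase, averaged 569.9 ± 48.9 CPM (SD, n = 5) in cotadutide and 565 ± 65.9 CPM (SD, n = 4) in vehicle mice, and its cytosolic counterpart Idh1 averaged 208 ± 22.4 and 209 ± 13.5 CPM. Their log2 ratio was 1.46 ± 0.24 in cotadutide and 1.43 ± 0.15 in vehicle mice (exact permutation p = 0.841, 0.984 adjusted over 5 ratios). Mdh2, the matrix malate dehydrogenase, averaged 1251 CPM in cotadutide and 1181 CPM in vehicle mice, and the cytosolic Mdh1 averaged 732 and 696 CPM. The log2 ratio of Mdh2 to Mdh1 was 0.78 ± 0.16 in cotadutide and 0.76 ± 0.03 in vehicle mice (exact permutation p = 0.937, 0.984 adjusted over 5 ratios). Aco1, the cytosolic aconitase that doubles as an iron sensor, averaged 158 ± 15.9 CPM in cotadutide and 131 ± 14.5 CPM in vehicle mice (SD, n = 5 and n = 4; log2 fold change 0.27, edgeR adjusted p = 0.0836), with 4 of 5 cotadutide libraries above all vehicle libraries.

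Of 27 other genes that supply, drain or assist the cycle, 5 were called higher, 2 lower and 20 were not called (median log2 fold change 0.06). Over all genes tested, 9.31% were called higher and 9.34% lower. Acss1, which makes acetyl-CoA from acetate in mitochondria, rose 1.57-fold, at 217 ± 27.4 CPM (SD, n = 5) in cotadutide and 139 ± 26.3 CPM (SD, n = 4) in vehicle mice (edgeR adjusted p = 0.0165). Pck2, the mitochondrial phosphoenolpyruvate carboxykinase, rose 1.49-fold (27.2 CPM in cotadutide and 18.3 CPM in vehicle mice, edgeR adjusted p = 0.0194), and its cytosolic form Pck1 rose as well (3925 CPM in cotadutide and 2610.5 CPM in vehicle mice, edgeR adjusted p = 0.0232). Of the succinate dehydrogenase subunits, Sdhb rose 1.32-fold (edgeR adjusted p = 0.0393), and Sdhd, named after its values were seen, rose 1.26-fold (edgeR adjusted p = 0.0478). Me1, the cytosolic malic enzyme that makes NADPH, was 1.79 times lower (226 ± 53.6 CPM in cotadutide and 405 ± 116 CPM in vehicle mice, SD, n = 5 and n = 4, edgeR adjusted p = 0.0266). Got2, the mitochondrial aspartate aminotransferase, was 1.85 times lower, at 34.0 to 88.9 CPM in cotadutide and 96.9 to 139 CPM in vehicle mice (edgeR adjusted p = 0.0314). Its lowest library was cotadutide mouse 3 and its highest vehicle mouse 4, the libraries with the least and the most muscle mRNA; the part of muscle mRNA in this value was not tested. The groups overlapped for Me1 and did not for the other 6 genes. Each of these calls depended on single libraries. Those of Acss1 and Pck2 were lost without vehicle mouse 1, 2 or 3 (edgeR adjusted p = 0.0573, 0.0543 and 0.0500004 for Acss1, and 0.0609, 0.0634 and 0.0542 for Pck2). That of Pck1 was lost without vehicle mouse 1 (0.0699), vehicle mouse 2 (0.0680) or cotadutide mouse 2 (0.0518), and with the mouse number as a block (edgeR adjusted p = 0.0554). Me1 was not called without vehicle mouse 1 (0.0878) or 2 (0.0732), without cotadutide mouse 2 (0.0765) or 3 (0.0526), or without the low-count filter (0.0822). Got2 was not called without cotadutide mouse 2 (0.0995) or 4 (0.0650), without any 1 of the vehicle mice (0.0612 to 0.0845), without both vehicle mouse 4 and cotadutide mouse 3 (0.0622), or without the low-count filter (edgeR adjusted p = 0.108). Sdhb was called in 9 and Sdhd in 4 of 17 alternatives. Without single libraries, Sdhb was not called on leaving out vehicle mouse 1, 2 or 3 or cotadutide mouse 1, 2, 3 or 5 (edgeR adjusted p from 0.0519 to 0.127), and Sdhd on leaving out any library but vehicle mouse 4 (edgeR adjusted p from 0.0500147 to 0.149).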

How the data were processed

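Per the labels' protocols, RNA with poly(A) tails was taken from 30 mg of tissue per mouse and sequenced after preparation with a NEBNext Ultra kit. Trimmomatic 0.36, STAR 2.5.2b, Subread 1.5.2 (featureCounts) and mm10 are named in the submitters' processing notes. Neither the strand setting nor the release of the gene annotation is named there, so sense and antisense reads cannot be told apart. The authors deposited raw counts per Ensembl gene for 9 libraries, with gene model lengths. Symbols were matched by Ensembl identifier (48970 of 49315). The labels gave each library's group and mouse number.

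The 30 genes, the other lists and the tests were chosen with earlier results of these data known. Genes were filtered with filterByExpr, scaled by TMM and tested with edgeR 4.0.16 (glmQLFit, robust, glmQLFTest; R 4.3.3) over all 9 libraries with group as the only term; p-values were adjusted over 14747 genes. SE is the size of the log2 fold change over the root of F, and intervals are 95%. CPM per kb uses the files' length column. Ratios of 2 genes (0.5 counts added) were tested by exact two-sided permutation over all splits. Counts were simulated for cotadutide against vehicle with 200 genes changed and 1 common variation between mice (17.0%) for all genes. On these, edgeR recovered 28.1% of genes changed 1.5-fold (14548 genes tested) and 88.3% of those changed 2-fold (14527 genes tested). The data differ from this setting, since the 30 genes varied less (medians of 9.09% and 7.45%) and 2751 genes were called. The recovered shares therefore do not give the power for the 30 genes. Alternatives were other scaling, filters, DESeq2 1.42.0, limma-voom 3.58.1, a mouse number block, no mitochondrially encoded genes, and leaving out libraries. All 30 genes are named; of the other pathway genes, those called with the smallest adjusted p. No replicate pair agreed within counting noise (lowest chi-square per degree of freedom 12.2), so all 9 counted separately.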

Additional observations from a re-analysis of the deposited data

Results flagged for a closer look

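The Dlat level of vehicle mouse 4, 480 CPM, lay far below those of the other 3 vehicle mice, 619 to 644 CPM, relative to the spread of the group. It was the 1 such sample among 60 groups of libraries examined for the 30 genes, and chance flags about 1 in 20 groups. That library also held the highest sum of 12 skeletal muscle markers, 46743 CPM; the part of muscle mRNA in the Dlat value was not tested.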

How the results depend on the processing

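Of 510 recomputed log2 fold changes of the 30 genes, 462 kept their direction and their side of the threshold, 24 lost a call, 4 gained one and 20 changed sign. Pdp1 was called in all 17 alternatives, Pdp2 in 15, Mpc2 in 10 and Idh3g in 2. Of the called genes of the wider pathway, Acss1 and Pck2 were each called in 14, Pck1 in 13, Me1 in 12, Sdhb and Got2 in 9 and Sdhd in 4, and none changed sign. With the mouse number as a replicate block, 1 of the 30 genes was called higher and 1 lower, and 1284 genes in all, beside 2751 without it; Mpc2, Idh3g, Pck1, Sdhb and Sdhd lost their calls. Same-numbered mice were not paired, since their deviations correlated at 0.14, -0.04, 0.02 and -0.01, and 1 of 4 cotadutide libraries correlated best with its own number. Leaving out libraries gave 0 to 3 genes called higher, 1 to 2 lower and 139 to 3704 genes called in all. The genes that changed sign were called in none of the settings. Without the low-count filter the log2 fold changes were -0.035 for Idh2, -0.0022 for Ogdh and -0.0090 for Mpc1, and without mitochondrially encoded genes Idh2 was at -0.014. Leaving out libraries gave log2 fold changes of -0.081 to 0.027 for Idh1, -0.083 to 0.075 for Idh2, -0.035 to 0.062 for Ogdh, -0.018 to 0.082 for Pdha1, -0.015 to 0.25 for Pdk3 and -0.035 to 0.060 for Mpc1. It gave log2 ratio differences of -0.040 to 0.12 for Idh2 to Idh1, -0.053 to 0.050 for Mdh2 to Mdh1, -0.026 to 0.062 for Suclg2 to Sucla2 and -0.17 to 0.11 for Pdk4 to Pdk2. The difference for Pdp1 to Pdp2 was -1.82 to -1.59, with adjusted exact permutation p of 0.0893 to 0.143, the smallest that 8 libraries allow. The cause of these changes was not tested. Depth limits Pdk3, with as few as 26 counts in a library. The joint omission of vehicle mouse 4 and cotadutide mouse 3 was chosen after seeing the data.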
